A study of Mus musculus with 6 samples.

Results

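The Ly6 surface protein family was examined here as 8 mouse genes, Ly6a, Ly6c1, Ly6c2, Ly6d, Ly6e, Ly6h, Ly6i and Ly6k, out of 21951 annotated protein-coding genes. The genes were chosen by name, with earlier results of these data known, and all 8 lie in one cluster on chromosome 15. Trimethylation of lysine 4 on histone H3 (H3K4me3), a mark found at active promoters, was measured by ChIP-seq in 2 lymphocyte progenitor lines. Scid.adh.2C2 is a T-cell progenitor line, subcloned from a line that grew out of a spontaneous thymic lymphoma in CB17-Prkdc scid mice. 230-238 is a B-cell progenitor line transformed by the Abelson virus. No treatment is given in the labels, and each line gave 2 ChIP libraries with the same H3K4me3 antibody and 1 input library. For each line 1 peak list with both replicates combined was used, so that there is no spread between replicates, no read depth and no test of a difference between the lines. Each line stands for 1 transformed culture, and lineage, transformation and strain cannot be told apart.

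Ly6 proteins are small, cysteine-rich proteins that fold into a three-finger domain and are mostly held on the outer cell surface by a glycosylphosphatidylinositol (GPI) anchor. In the immune system they are used as markers of cell types and stages, and several of them are induced by interferons. Ly6a encodes the stem cell antigen of hematopoietic stem and progenitor cells, Ly6c1 and Ly6c2 encode the Ly6C antigens of monocytes and T cell subsets, and Ly6d marks lymphoid progenitors on the way to the B lineage. Ly6e encodes an antigen of immature thymocytes that is also found in many other tissues. Ly6h is known from the brain and Ly6k from germ cells, and Ly6i is a close relative of the Ly6c genes.

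A promoter was taken as the 2500 bp on both sides of each annotated transcription start site (TSS) of a gene and was called marked if at least 1 bp of it lay under a peak. Of the 8 members, only Ly6e had a promoter peak, and it had one in both lines. The marked share was therefore 12.5% of the members in either line, against 45.5% of all protein-coding genes in Scid.adh.2C2 and 48.2% in 230-238. Across the genome 42.2% of the protein-coding genes were marked in both lines, 3.28% in Scid.adh.2C2 only and 5.96% in 230-238 only. No member was marked in 1 line only. With 8 members, 1 gene changes these shares by 12.5 percentage points. An unmarked promoter is one where no peak passed the thresholds used for the list, not one shown to lack the mark.

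The lists held the marker genes of the labelled lineages. Promoter peaks were found at 12 of 12 T cell progenitor markers in Scid.adh.2C2 and at 5 of 12 in 230-238, while 11 of 12 B cell progenitor markers were marked in 230-238 and 4 of 12 in Scid.adh.2C2. Of 12 myeloid markers, 3 were marked in Scid.adh.2C2 and 2 in 230-238, and of 10 erythroid markers 2 were marked in either line. Cd79a, Ebf1 and Pax5 had no promoter peak in Scid.adh.2C2, and Cd3e, Thy1 and Gata3 had none in 230-238.

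The sequence under the strongest point of the Ly6e peak is shown first, since this is the only place in the family where both lines carried a promoter peak. The window is chr15:74955867-74956166 of GRCm38, plus strand, which is the strand of the gene. Capitals mark the 28 bases from the summit in Scid.adh.2C2 to the summit in 230-238. The window has a GC content of 58.0% and contains 6 CpG dinucleotides.

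Ly6e summits: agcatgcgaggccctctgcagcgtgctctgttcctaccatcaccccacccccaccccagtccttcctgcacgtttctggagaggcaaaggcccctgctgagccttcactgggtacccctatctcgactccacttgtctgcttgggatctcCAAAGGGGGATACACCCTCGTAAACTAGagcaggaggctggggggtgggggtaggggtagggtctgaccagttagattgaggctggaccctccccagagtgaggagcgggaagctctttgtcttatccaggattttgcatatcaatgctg

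Ly6e (ENSMUSG00000022587) lies on the plus strand of chromosome 15 from 74955051 to 74959905. In Scid.adh.2C2 its peak reached from 74954151 to 74959269, with a width of 5119 bp, a fold enrichment over background of 39.2 and a −log10 p of 229. In 230-238 the peak reached from 74954060 to 74958733, with a width of 4674 bp, a fold enrichment of 29.4 and a −log10 p of 177. The fold enrichment is a value of the peak caller and is scaled within a list, so that 39.2 and 29.4 were not compared directly. Both peaks stood high in their own list. By fold enrichment the Ly6e peak ranked 368 of 15513 in Scid.adh.2C2 and 665 of 19604 in 230-238, and it was 1.93-fold and 1.91-fold above the median peak of its list. By width it ranked 127 and 575, at 3.32 and 2.94 times the median width.

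The position of the Ly6e peak was nearly the same in both lines. The peaks shared 4583 bp, which is 89.5% of the peak in Scid.adh.2C2 and 98.1% of the peak in 230-238. The summits were 27 bp apart, at 966 bp after the most upstream TSS in Scid.adh.2C2 and 993 bp after it in 230-238. Ly6e has 15 annotated TSSs from 16 transcripts, and all 15 lay inside the peak of either line. They form a group of 9 within 209 bp, a group of 5 between 602 bp and 632 bp after the first TSS, and a single TSS at 1504 bp. Both summits fell between the second group and the single TSS, in an intron of the protein-coding transcripts that start before them and in an exon of 1 transcript with a retained intron. Upstream of the first TSS the peak extended for 900 bp in Scid.adh.2C2 and 991 bp in 230-238. Downstream it covered 4218 bp in Scid.adh.2C2 and 3682 bp in 230-238, so that 86.9% and 75.9% of the length of the gene were inside the peak. The end of the peak inside the gene was thus 536 bp farther in Scid.adh.2C2, while the start was 91 bp farther out in 230-238.

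**Figure D1:**
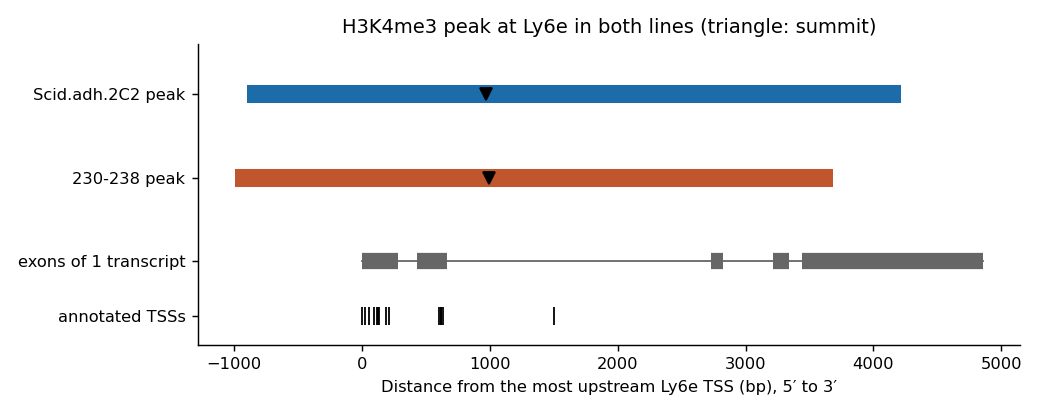
H3K4me3 peaks at Ly6e, with the distance from the most upstream TSS in bp on the x axis and, from top to bottom, the peak of each line with its summit as a triangle, the exons of 1 protein-coding transcript, and the 15 annotated TSSs. The summits are 27 bp apart, and the peak of Scid.adh.2C2 ends 536 bp farther into the gene than that of 230-238.

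The Ly6e peak differed between the lines in the score given by the IDR procedure (irreproducible discovery rate). This score measures how reproducibly a peak is ranked. Each list combines both replicates, so that the score is not a value of either replicate. In 230-238 the score was 1000, the highest value. In Scid.adh.2C2 it was 571, although by −log10 p the peak ranked 20 of all 15513 peaks and first of the 625 peaks of chromosome 15. In 230-238 the rank by −log10 p was 700 in all and 16 of 818 on chromosome 15. A score under 1000 was common among the strongest peaks. Of the 155 peaks that make up the top 1% by −log10 p in Scid.adh.2C2, 77 scored below 1000 (49.7%), and of the 196 in 230-238, 61 did (31.1%). When only peaks with a score of 1000 were used, no member was marked in Scid.adh.2C2 and Ly6e was marked in 230-238 alone.

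The genes with the most similar pair of peak heights were found by the percentile of the highest promoter peak in each list, over 9260 other protein-coding genes marked in both lines. Crem, a transcription factor of the cAMP response, was nearest, with a fold enrichment of 39.4 in Scid.adh.2C2 and 29.5 in 230-238 and a distance of 0.153 percentile points. Fam206a had a fold enrichment of 39.4 and 29.6, at a distance of 0.265. With 2 lists this describes only the height of the peaks.

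The other 7 members differed in how far they lay from the nearest peak. Ly6i (ENSMUSG00000022586, minus strand, 74979534 to 74983430) and Ly6a (ENSMUSG00000075602, minus strand, 74994877 to 74998031) were the closest. From the TSS of Ly6i the nearest peak lay 4924 bp upstream in Scid.adh.2C2 and 4381 bp upstream in 230-238. From the nearest TSS of Ly6a the same peak lay 7618 bp downstream in Scid.adh.2C2 and 7102 bp downstream in 230-238. Both genes were thus outside the promoter window by a few kb, and Ly6i was marked in both lines when the window was widened to 5000 bp. Among unmarked protein-coding genes the nearest peak was at a median distance of 91.5 kb in Scid.adh.2C2 and 91.9 kb in 230-238. Only 3.30% and 2.69% of these genes had a nearer peak than Ly6i, and 6.74% and 6.62% a nearer one than Ly6a.

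Ly6d (ENSMUSG00000034634, minus strand, 74762056 to 74763620) was the member whose distance differed most in proportion between the lines. The nearest peak was 10.25 kb away in Scid.adh.2C2, at Lynx1, and 40.4 kb away in 230-238, at Them6. Ly6k (ENSMUSG00000044678, minus strand, 74796874 to 74799986) had the same peaks as neighbours, at 46.2 kb and 76.3 kb. Ly6c1 (ENSMUSG00000079018, 75044018 to 75048830) was 58.7 kb from a peak in Scid.adh.2C2 and 58.1 kb in 230-238. Ly6c2 (ENSMUSG00000022584, 75108158 to 75111970) was the most distant, at 121.7 kb and 121.2 kb. Ly6h (ENSMUSG00000022577, 75551268 to 75567255), at the far end of the cluster, was 49.3 kb and 49.4 kb from the peak at Zfp41. These last 3 genes are on the minus strand as well. Ly6c1 and Ly6k are on the list of T-lineage-restricted genes that the study drew from expression in mouse progenitors. Neither had a promoter peak in the T-cell progenitor line. That list rests on RNA of other cells, not on H3K4me3 in this line.

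**Figure D2:**
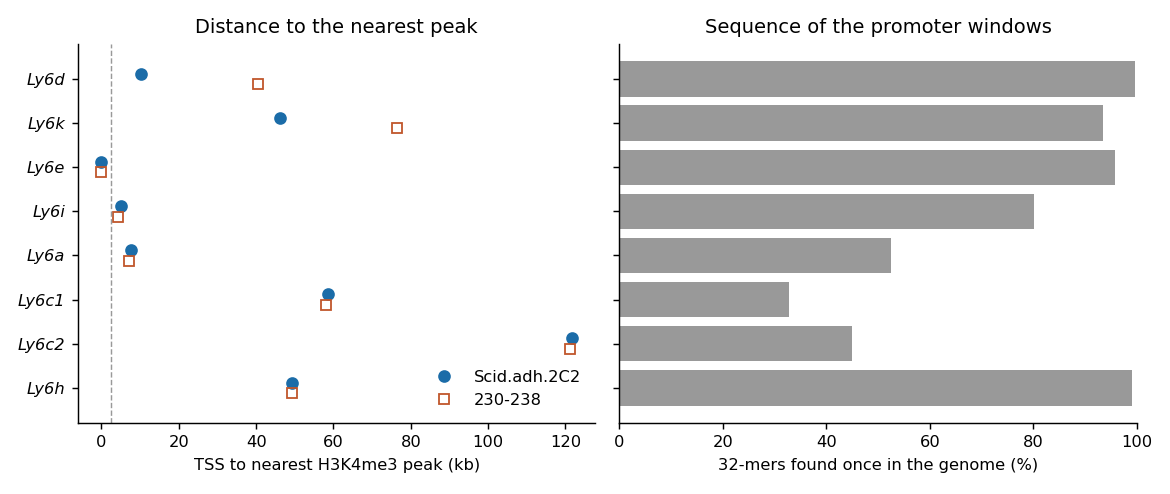
Left, distance in kb from the nearest TSS of each member to the nearest H3K4me3 peak, with filled circles for Scid.adh.2C2, open squares for 230-238 and a dashed line at 2.5 kb, the promoter window. Right, the percentage of 32-mers in the promoter windows that occur once in the genome, from 32.7% at Ly6c1 to 99.7% at Ly6d; only Ly6e has a peak inside the window.

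Genes of the cluster are copies of one another, and reads from such copies can map to several places. As a measure of this, each 32 bp word (32-mer) of the promoter windows was counted over the GRCm38 chromosomes on both strands. The ChIP-seq reads described in the paper were longer, so that a read can map uniquely where a 32-mer recurs. At Ly6c1 32.7% of the 32-mers occurred once, at Ly6c2 45.0%, at Ly6a 52.5% and at Ly6i 80.1%. Most of the rest occurred 2 to 10 times, with 66.9% of the 32-mers of Ly6c1, 52.9% of Ly6c2 and 47.5% of Ly6a. In contrast, 99.7% of the 32-mers of Ly6d, 99.1% of Ly6h, 95.8% of Ly6e and 93.5% of Ly6k were unique. Ly6d, Ly6h and Ly6k had no promoter peak, and their windows were about as unique as that of Ly6e by this measure. The part of shared sequence in the missing peaks was not tested for any of the unmarked members.

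The promoters of Ly6c1 and Ly6c2 are shown as an example of such copies. They are RefSeq windows of GRCm38.p6 from 250 bp before to 50 bp after a TSS, on the minus strand, at chr15:75048788-75049087 for Ly6c1 and chr15:75111922-75112221 for Ly6c2. Capitals mark the bases that are identical in a pairwise alignment, 212 of 283 aligned columns (74.9%). Ly6c1 has 1 CpG in this window and Ly6c2 has 0. Such windows were at hand for 2 of the 8 members, not for Ly6a, Ly6d, Ly6e, Ly6h, Ly6i and Ly6k.

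Ly6c1: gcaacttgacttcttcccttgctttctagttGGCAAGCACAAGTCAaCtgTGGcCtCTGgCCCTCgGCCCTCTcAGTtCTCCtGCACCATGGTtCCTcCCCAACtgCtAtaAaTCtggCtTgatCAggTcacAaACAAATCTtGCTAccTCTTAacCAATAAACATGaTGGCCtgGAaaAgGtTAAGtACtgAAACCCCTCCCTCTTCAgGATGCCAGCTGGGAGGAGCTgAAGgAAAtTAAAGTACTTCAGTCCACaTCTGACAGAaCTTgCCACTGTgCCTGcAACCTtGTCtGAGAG

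Ly6c2: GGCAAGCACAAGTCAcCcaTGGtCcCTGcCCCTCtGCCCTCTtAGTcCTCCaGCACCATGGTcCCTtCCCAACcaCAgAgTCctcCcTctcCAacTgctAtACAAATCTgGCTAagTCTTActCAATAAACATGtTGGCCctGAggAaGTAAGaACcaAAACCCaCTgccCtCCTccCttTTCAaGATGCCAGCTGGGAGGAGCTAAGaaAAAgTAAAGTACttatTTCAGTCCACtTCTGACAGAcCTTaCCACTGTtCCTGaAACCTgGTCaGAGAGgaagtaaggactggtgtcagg

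To describe the whole cluster, all peaks were taken from 2500 bp before the first member, Ly6d, to 2500 bp after the last, Ly6h, an interval of 810.2 kb from 74759556 to 75569755. It held 5 peaks in Scid.adh.2C2 and 7 in 230-238, or 6.17 and 8.64 peaks per Mb. On chromosome 15 as a whole there were 6.24 and 8.16 peaks per Mb, so that the number of peaks in the cluster was near that of the chromosome. The peaks were placed unevenly. By their summits, the peaks of Scid.adh.2C2 lay from 59.0 kb before to 34.3 kb after the Ly6e TSS and those of 230-238 from 36.7 kb before to 34.25 kb after it. In each line 4 peaks had a partner in the other. The lowest peak was 7.87-fold enriched in Scid.adh.2C2 and 5.51-fold in 230-238, the median was 10.3 and 9.85, and the highest in either line was Ly6e.

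**Figure D3:**
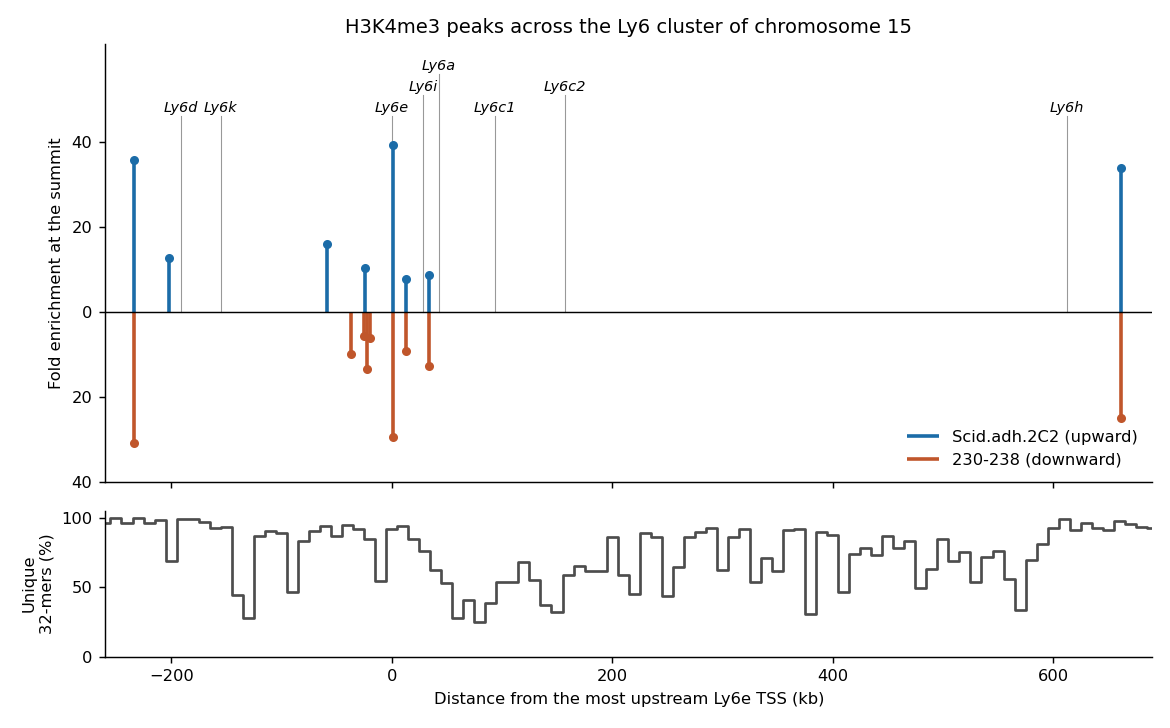
Fold enrichment at the summit of every peak from 50 kb before to 50 kb after the cluster, upward for Scid.adh.2C2 and downward for 230-238, against the distance from the most upstream Ly6e TSS in kb, with grey lines at the members' TSSs. The lower panel gives the percentage of unique 32-mers in bins of 10 kb; no peak of either line lies between the one beside Ly6a and the one at Zfp41.

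From the peak between Ly6i and Ly6a to the peak at Zfp41, no peak was called for 626.5 kb in Scid.adh.2C2 and 626.1 kb in 230-238. This stretch contains Ly6a, Ly6c1, Ly6c2 and Ly6h and the further family genes Ly6f, Ly6g, a marker of neutrophils, Ly6l and Gpihbp1, which carries lipoprotein lipase to the capillary lumen. In all it has 27 annotated genes, of which 9 are protein-coding and 16 are pseudogenes. In Scid.adh.2C2 it ranked 38 of the 624 intervals between neighbouring peaks of chromosome 15 and 909 of 15492 in the genome. In 230-238 the ranks were 38 of 817 and 895 of 19583. Intervals of at least this length had a median of 3 protein-coding genes, and 132 of the 909 in Scid.adh.2C2 and 132 of the 895 in 230-238 had 9 or more. Of the 32-mers in the stretch 68.3% were unique in Scid.adh.2C2 coordinates and 68.4% in those of 230-238, and between the start of Ly6i and the end of Ly6c2 48.1% were.

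Outside Ly6e, every peak of the cluster lay below the median fold enrichment of its list. A peak 13.1 kb after the Ly6e TSS was present in both lines, from 74967960 to 74968343 in Scid.adh.2C2 and from 74967999 to 74968382 in 230-238. It was 384 bp wide in either line, its summits were 5 bp apart, and it was 7.87-fold and 9.08-fold enriched, at the percentiles 13.9 and 20.98 of the lists. No annotated gene lies at its summit, and no promoter window reaches it. The peak between Ly6i and Ly6a lay at Gm37042, a transcript still to be verified according to the annotation, and the pseudogene Gm8000. It was 1663 bp wide and 8.79-fold enriched in Scid.adh.2C2 and 2722 bp wide and 12.6-fold enriched in 230-238, where it contained the whole of the Scid.adh.2C2 peak. The summits were 36 bp apart. Of its 32-mers, 80.5% and 76.7% were unique.

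The 300 bp at the summits of these 2 peaks are printed, plus strand, since they are the peaks nearest to Ly6e, Ly6i and Ly6a that both lines share. The first is chr15:74968021-74968320, at the Scid.adh.2C2 summit, and the second chr15:74989151-74989450, at the 230-238 summit. Capitals mark the letters TGTGGT, a core motif of RUNX factors, on either strand. They occur in the first window and not in the second. Of all summit windows, 18.1% in Scid.adh.2C2 and 18.9% in 230-238 hold them.

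Peak after Ly6e: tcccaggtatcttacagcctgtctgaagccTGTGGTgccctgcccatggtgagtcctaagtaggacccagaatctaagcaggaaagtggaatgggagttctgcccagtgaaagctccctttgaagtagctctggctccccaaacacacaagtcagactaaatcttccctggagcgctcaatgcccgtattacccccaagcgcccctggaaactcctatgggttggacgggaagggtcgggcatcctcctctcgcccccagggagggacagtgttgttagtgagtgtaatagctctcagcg

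Peak between Ly6i and Ly6a: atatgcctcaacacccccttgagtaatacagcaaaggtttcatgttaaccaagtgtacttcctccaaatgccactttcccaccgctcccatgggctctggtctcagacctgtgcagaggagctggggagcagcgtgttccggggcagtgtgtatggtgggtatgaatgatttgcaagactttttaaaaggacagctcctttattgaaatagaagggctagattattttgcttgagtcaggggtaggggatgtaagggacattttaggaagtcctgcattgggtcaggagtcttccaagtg

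The lncRNA gene Gm39556, which ends before Ly6e, was covered differently in the lines. In Scid.adh.2C2 it had 1 peak of 736 bp, 10.3-fold enriched. In 230-238 it had 3 peaks, of 971 bp, 3437 bp and 1474 bp, with a fold enrichment of 5.51, 13.4 and 5.998. Of these only the widest overlapped the peak of Scid.adh.2C2, by 599 bp, and the summits were 2026 bp apart. A further peak in 230-238 only, 568 bp wide and 9.85-fold enriched, lay between genes 36.7 kb before the Ly6e TSS. With equal numbers of peaks in both lists, 4 of the 7 peaks of 230-238 in the cluster were left.

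**Figure D4:**
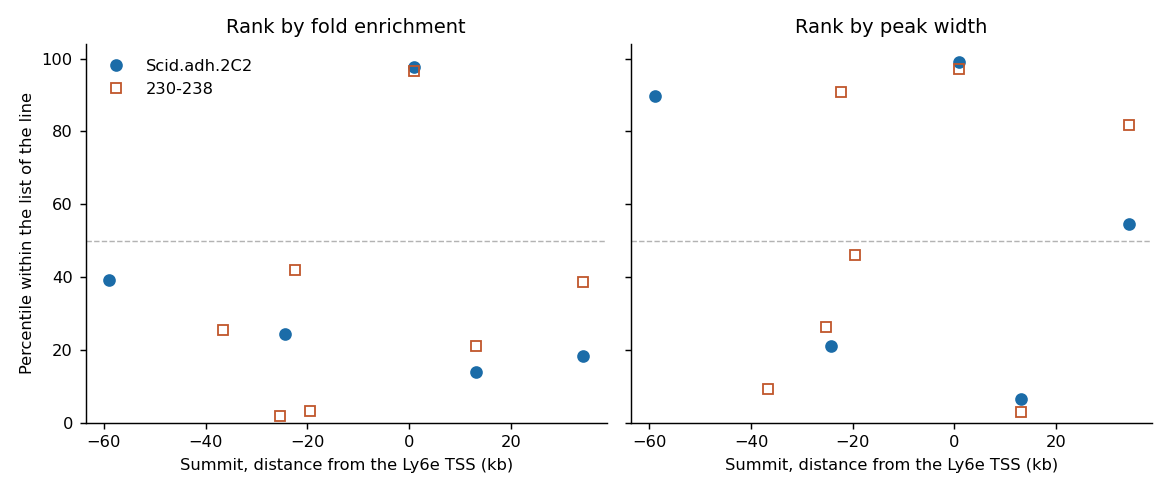
Percentile of each cluster peak within the list of its line by fold enrichment (left) and by width (right), against the distance of its summit from the most upstream Ly6e TSS in kb, with circles for Scid.adh.2C2 and squares for 230-238. By fold enrichment only the Ly6e peak of each line, at 97.6 and 96.6, lies above the median shown as a dashed line.

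Of 12 further genes with a Ly6 domain on this part of chromosome 15, 2 were marked in Scid.adh.2C2 and 0 in 230-238. Among all protein-coding genes the marked shares were 45.5% and 48.2%. Ly6m, annotated as 2010109I03Rik, had a 2946 bp wide peak from 74895465 to 74898410 in Scid.adh.2C2 only. Its fold enrichment of 16.1 was at percentile 39.1 of the list, while its −log10 p of 177 was at percentile 94.8. Lynx1, a modulator of nicotinic acetylcholine receptors, had a 904 bp wide and 12.8-fold enriched peak in Scid.adh.2C2 only, from 74752467 to 74753370. With TSSs of protein-coding transcripts alone, Lynx1 but not Ly6m was marked. Ly6m is also on the T-lineage list of the study. The summit of its peak, chr15:74895941-74896240 on the plus strand, is a sequence rich in CA repeats, in which the RUNX letters occur 4 times as ACCACA, in capitals. Of all summit windows of the Scid.adh.2C2 list, 18.1% hold these letters at least once.

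Ly6m summit: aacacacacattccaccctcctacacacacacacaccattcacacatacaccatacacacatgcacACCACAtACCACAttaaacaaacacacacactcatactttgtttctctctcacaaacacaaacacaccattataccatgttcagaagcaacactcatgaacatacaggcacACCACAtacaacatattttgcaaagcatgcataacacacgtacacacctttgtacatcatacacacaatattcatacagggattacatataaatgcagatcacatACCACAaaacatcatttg

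On other chromosomes 26 genes with a Ly6 or related domain were found in the annotation. Of these, 2 were marked in Scid.adh.2C2 and 3 in 230-238, against 45.5% and 48.2% of all protein-coding genes. Pinlyp and Pate2 were marked in both lines, but their peaks also overlapped the promoter windows of Xrcc1, a DNA repair gene, and Hyls1, a centriole gene. Ly6g6c was marked in 230-238 only, 7.84-fold, by a peak shared with Mpig6b. Cd59a, Cd59b and Plaur, the receptor of urokinase, had no promoter peak in either line. Thus Ly6e was the only gene among the members and these relatives with a peak in both lines that reached no promoter window of another protein-coding gene. It did reach that of the pseudogene Gm29126.

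The machinery that attaches the GPI anchor was marked almost completely. Of 26 genes for synthesis and transfer of the anchor, 26 had a promoter peak in Scid.adh.2C2 and 25 in 230-238, where Pigp was unmarked. Of all protein-coding genes, 45.5% were marked in Scid.adh.2C2 and 48.2% in 230-238. In Scid.adh.2C2, Pigp, a subunit of the enzyme of the first step, was 24.3-fold enriched. At Piga, the catalytic subunit of the same enzyme, the peak was 19.5-fold enriched in Scid.adh.2C2 and 24.1-fold in 230-238. These values were at the percentiles 47.7 and 84.0 of the lists. At Gpaa1, a subunit of the transamidase that joins anchor and protein, the peak was 29.2-fold and 19.8-fold enriched, at the percentiles 78.2 and 67.6.

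Of 31 interferon response genes, 24 were marked in either line, 20 of them in both. The shares of all protein-coding genes were 45.5% in Scid.adh.2C2, 48.2% in 230-238 and 42.2% in both. In Scid.adh.2C2 only, Rtp4 was marked with 32.1-fold enrichment, Mx1, an antiviral GTPase, with 13.3-fold, Oas1a with 9.86-fold and Rsad2 with 9.02-fold. In 230-238 only, the neighbouring genes Ifitm2, Ifitm3 and Ifitm1, which restrict virus entry, were marked with 30.3-fold, 16.8-fold and 15.6-fold enrichment, and Oasl1 with 7.00-fold. The labels name no interferon treatment for either line.

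The letters of interferon-responsive elements were searched in the 300 bp at each summit of the cluster. The core of the interferon-stimulated response element, 2 copies of TTTC with 2 bases between them, was found at none of the 5 summits of Scid.adh.2C2 and none of the 7 of 230-238, Ly6e included, and is held by 3.95% and 4.09% of all summit windows. TTCNNNGAA, the letters of a STAT site, was found at 2 summits of 230-238, the one 36.7 kb before Ly6e and the widest of Gm39556, and is held by 8.07% of the windows of that list. Neither was found in the printed promoters of Ly6c1 and Ly6c2, against 3.43% and 8.29% of all RefSeq promoter windows. Both strands were searched, and no match says only that these letters are not in the window. The windows at the Ly6e summits contain none of its annotated TSSs, so that the sequence at those TSSs was not searched.

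Promoters rich in CpG dinucleotides carry H3K4me3 in most cell types, and the members were compared with all genes on this property. In 1001 bp centred on the most upstream TSS, the ratio of observed to expected CpG was lowest at Ly6c1, with 0.052, and was 0.066 at Ly6c2, 0.071 at Ly6a, 0.154 at Ly6i, 0.203 at Ly6d, 0.317 at Ly6e, 0.601 at Ly6k and 0.648 at Ly6h. With a ratio of at least 0.6 and a GC content of at least 50% as CpG-rich, 2 members were CpG-rich and 6 CpG-poor, against 55.6% CpG-poor among 21938 protein-coding genes. Ly6c1, Ly6c2 and Ly6a were at the percentiles 2.51, 3.92 and 4.49 of all genes.

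Among the 8 members, the marked one was not CpG-rich. The CpG-rich promoters of Ly6h and Ly6k had no peak in either line. Of all genes CpG-rich at the most upstream TSS, 73.2% were marked at any TSS in Scid.adh.2C2 and 75.9% in 230-238. Both genes lie near the cutoff, where the marked share is lower. For ratios from 0.6 to 0.65, 688 genes were marked and 471 unmarked in Scid.adh.2C2. In 230-238 these were 729 and 430. Ly6e was CpG-poor and marked. Of all genes CpG-poor at the most upstream TSS, 23.4% were marked at any TSS in Scid.adh.2C2 and 26.1% in 230-238. Among the 2850 marked CpG-poor genes of Scid.adh.2C2, 103 had a peak as high as that of Ly6e or higher and 45 one as wide or wider. Among 3180 in 230-238 these were 178 and 191. Ly6e was CpG-poor at every TSS. Of the 10702 genes for which this holds, 17.8% were marked in Scid.adh.2C2 and 20.4% in 230-238. Over all its 15 TSSs the ratio at Ly6e ranged from 0.244 to 0.461, and at the summits it was 0.476 in Scid.adh.2C2 and 0.482 in 230-238, at the percentiles 39.7 and 50.6 of all summits. At Ly6k, 1 of 2 TSSs was CpG-rich, and at Ly6h 7 of 7.

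**Figure D5:**
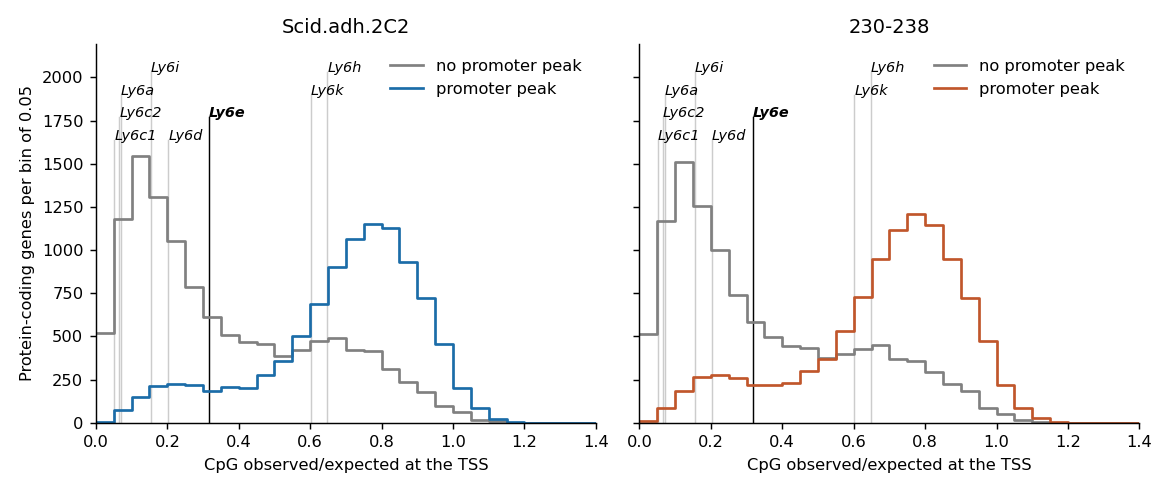
Number of protein-coding genes with (colour) and without (grey) a promoter peak in each line by the ratio of observed to expected CpG in 1001 bp at the most upstream TSS, in bins of 0.05. Vertical lines give the 8 members; Ly6e, the black line at 0.317, is the only one with a promoter peak, and Ly6k and Ly6h lie where most genes have one.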

How the data were processed

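H3K4me3 ChIP-seq libraries of both lines were trimmed by the authors with Trim Galore 0.6.7, mapped to mm10 (GRCm38) with Bowtie2 2.4.4 and called with MACS2 2.2.7.1 in narrow mode at a q-value of 0.05 against input, followed by IDR at 0.05. How multiply mapping reads were treated is not given in the sources used here. The deposited lists give, per peak, an IDR score, a fold enrichment ratio and a −log10 p, all used unchanged and within a list. The q-value column was not used here. Depth is unknown. Inputs entered only through the authors' peak calling.

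TSSs were taken from GENCODE M21 on GRCm38 and sequence from RefSeq GRCm38.p6. Symbols were matched directly or by RefSeq synonyms (Pigy through Pigyl). Ly6g2, Ly6s, Lypd8l, Lypd10 and Mx2 were not matched. Peaks were counted by overlap, and all 32-mers were counted over the chromosomes. No statistical test between the lines was run, because there is 1 combined list per line. The 8 members, the gene lists and the rules were chosen with earlier results of these data known. Named genes were all members, genes whose promoters hold a cluster peak, up to 4 genes per list with the highest peak in 1 line only, and the 3 genes nearest to a marked member in peak height. Piga, Gpaa1, Pinlyp, Pate2, Cd59a, Cd59b, Plaur and the further family genes of the peak-free stretch were named in addition, after their values were seen. Some genes that these rules name are not reported here. The code that assigns peaks to promoters was checked on simulated peaks. Python 3.11.15, numpy 2.4.6, pandas 2.3.3 and matplotlib 3.10.9 were used.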

Additional observations from a re-analysis of the deposited data

How the results depend on the processing

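With promoter windows of 5000 bp, 2 members were marked in each line and in both, Ly6e and Ly6i. With IDR scores of 1000 alone, 0 members were marked in Scid.adh.2C2, 0 in both lines and 1, Ly6e, in 230-238 only. Under the other 6 promoter alternatives 1 member was marked in each line. In the cluster, peaks of at least 10-fold enrichment left 3 in Scid.adh.2C2 and 3 in 230-238, equal numbers of peaks left 4 in 230-238, and a margin of 50000 bp gave 8 in Scid.adh.2C2. Of the relatives in the cluster, the 5000 bp window gave 4 marked genes in Scid.adh.2C2 and 2 in 230-238 (Psca and Slurp1 in both lines), and protein-coding TSSs gave 1 in Scid.adh.2C2. Of the relatives elsewhere, 6 and 5 were marked at 5000 bp. Among the marker lists, the most upstream TSS left 2 T cell markers in 230-238, the 1000 bp window 1 myeloid marker in either line, and 10-fold peaks 1 myeloid and 1 erythroid marker in Scid.adh.2C2. Composition at every TSS, added after the data were seen, also gave 6 CpG-poor members. No paired analysis was possible because each list combines both replicates, and for the same reason no replicate could be left out. Depth limits every call of an unmarked promoter, and is unknown.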
